A study of Mus musculus with 16 samples.

Results

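The genes described are those of the cytosolic ribosomal proteins in the mouse hypothalamus. They were chosen by name from a table of 47069 genes: symbols that start with Rpl or Rps followed by a number, with Rplp0, Rplp1, Rplp2, Rpsa, Rps3a1 and Fau added and pseudogenes and mitochondrial ribosomal proteins left out. A mean of at least 10 counts over the libraries was also required. The names matched 78 rows, and 74 of them were kept, 42 for the large 60S subunit and 32 for the small 40S subunit. All 74 passed the filter on low counts. The remaining 4 rows, Rpl13, Rpl24, Rpl35 and Rpl35a, held 0 counts in every library, while the least counted of the 74 were Rpl23a (mean 124 counts), Rpl21 (231), Rpl29 (237) and Rpl17 (250).

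Bulk RNA was sequenced from hypothalami that had been cut from whole brain; the mice were of the inbred strain C57BL/6N. Protein supplied 1%, 2.5%, 5% or 20% of the energy in the diets and fat 60% or 20%, and 2 libraries were made for each of the 8 combinations. A protein level therefore had 4 libraries and a fat level 8. The sources used here give neither the age and sex of the mice, nor the time on the diets, nor whether 2 libraries on the same diet are different mice. The p-values therefore measure only the spread between samples, which may be technical.

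A cytosolic ribosome joins a small subunit, which reads the mRNA, to a large subunit, which forms the peptide bonds, and nearly every ribosomal protein comes from a single expressed gene. The mRNAs of these genes usually begin with a 5′ terminal oligopyrimidine tract (5′TOP), a run of C and T bases that starts with C, and their translation depends on the kinase complex mTORC1, which responds to amino acids. In the hypothalamus mTORC1 is known for a part in the control of food intake. The question put to the data was how the transcripts of the ribosomal proteins stood on diets that differed in protein, at each of the fat levels; RNA counts give no measure of their translation.

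Some libraries stood apart before any comparison. Total counts ran from 17731242 to 18511818 per library. Transcripts of the mitochondrial genome made up 1.54% and 1.61% of the counts in the libraries at 1% protein and 60% fat and 1.78% in replicate 1 at 1% protein and 20% fat. Replicate 2 of 20% fat with 1% protein, which completes that protein level, had 3.20%, and the 12 libraries at higher protein had 2.19% to 3.10%. Cortical and hippocampal markers stood apart too, with a mean deviation of log2 1.00 in the same replicate 2 and 2.18 in replicate 2 at 2.5% protein and 20% fat, against -0.58 to 0.04 elsewhere. Of the 10 hypothalamic markers examined all were detected, with summed levels between 650 and 1048 CPM.

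Levels of the 74 genes differed widely. Per kilobase of annotated exon their mean over the 16 libraries ran from 3.71 to 492 CPM (counts scaled to the library total), with a median of 38.5. Rplp1, an acidic protein of the ribosomal stalk that recruits elongation factors, was at 492 CPM per kilobase, Rps15 at 440.4 and Rpl8 at 295. At the low end stood Rpl21 at 3.71 CPM per kilobase, Rpl23a at 7.97, Rps24 at 10.3, Rpl17 at 10.3 and Rpl29 at 11.5. The divisor was all annotated exon bases of a gene, which can differ from the length counted, so these values depend on annotation too. Rps24, at 64.3 CPM, has 6256 such bases and a counted length of 5466, against a median of 1776 exon bases in the family. Genes with many processed pseudogene copies lay lower: the 17 genes with at least 5 named pseudogenes had a median of 21.9 CPM per kilobase, against 51.4 in the 19 genes with none. How reads that match several places were counted is not stated in the sources used here, so levels of genes with near-identical copies are uncertain. The named pseudogene rows held counts equal to 0.582% to 0.686% of those of the 74 genes.

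Together the 74 genes took a larger share of all counts at 1% protein than at the other levels. Their summed share was 0.893% and 0.834% in the libraries at 1% protein and 60% fat and 0.901% and 0.760% in those of 20% fat with 1% protein. At 20% protein it was 0.706% and 0.772% with 60% fat and 0.783% and 0.645% with 20% fat. The 3 libraries at 1% protein with a low mitochondrial share lay above every other library of the series, whereas replicate 2 at 1% protein and 20% fat lay within the range at 20% protein. Averaged by protein level, the share was 0.847 ± 0.065% for 1% protein, 0.759 ± 0.018% for 2.5%, 0.745 ± 0.030% for 5% and 0.726 ± 0.064% for 20% (SD over 4 libraries). Between fat levels it was 0.777 ± 0.061% at 60% fat and 0.762 ± 0.072% at 20% fat (SD, n = 8 each), a gap smaller than the spread within either. The ratio of 60S to 40S counts averaged 1.27, 1.26, 1.25 and 1.27 at 1%, 2.5%, 5% and 20% protein (SD 0.007 to 0.023, n = 4 each). Of the stalk genes Rplp0, Rplp1 and Rplp2 together, the share was 0.0566 ± 0.0057% at 1% protein and 0.0468 ± 0.0054% at 20% protein (SD, n = 4 each).

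**Figure D1:**
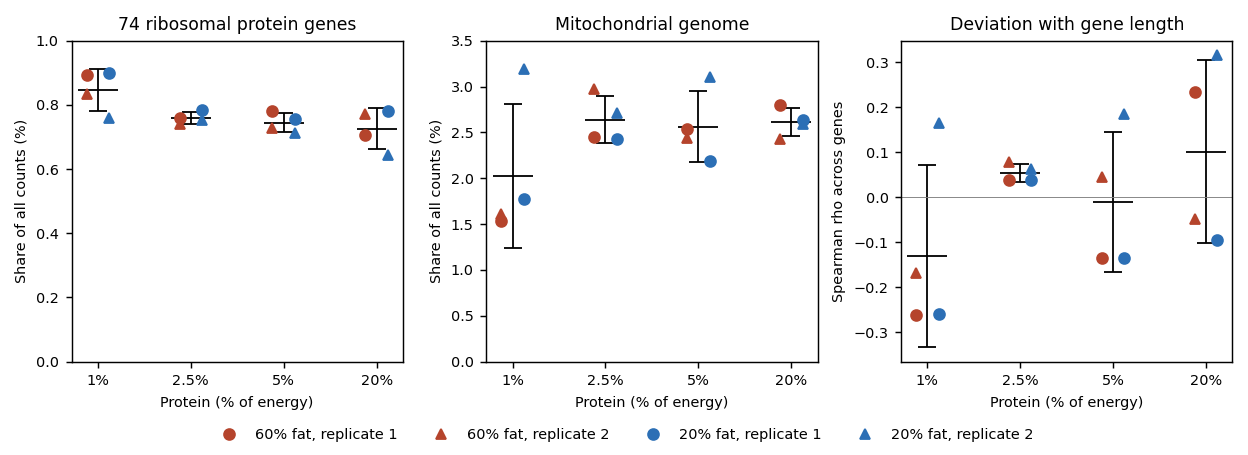
Shares of all counts (%) taken by the 74 ribosomal protein genes (left) and by genes of the mitochondrial genome (middle), and the Spearman correlation, across genes, of each library's deviation with gene length (right), by protein level (% of energy). Points are libraries, coloured by fat level and shaped by replicate, and bars are the mean ± SD of 4 libraries; the 3 libraries at 1% protein with ribosomal shares of 0.834% to 0.901% are those with mitochondrial shares of 1.54% to 1.78% and length correlations of -0.169 to -0.261.

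Set against 20% protein, ribosomal protein transcripts were higher at 1% protein. Of the 74 genes, 38 rose and 0 fell, 51.4% of them, while 8.26% of all 16646 genes tested rose and 6.01% fell. The 36 that did not pass also lay above 0 with a single exception, Rps24. An unadjusted p under 0.05 was reached by 60 of the 74. The median log2 change was 0.25, against 0.00 over all genes, and single genes ran from -0.03 to 0.39, equal to a change of at most 1.31-fold. The subunits gave similar counts: 21 of 42 genes of the 60S subunit rose (median 0.25) and 17 of 32 of the 40S subunit (median 0.25). The test was edgeR's quasi-likelihood F test on counts, with protein as 4 levels, fat as a term, and Benjamini-Hochberg adjusted p at or under 0.05. Values of the libraries overlapped for most genes, since all 4 libraries at 1% protein lay above all 4 at 20% for 12 of 74 genes (16.2%), against 7.4% of all genes.

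That count moved with the libraries left out. It became 9 without replicate 1 and 13 without replicate 2 at 1% protein and 60% fat, and 8 without replicate 1 at 1% protein and 20% fat. Leaving out replicate 1 at 20% protein and 60% fat gave 9, and leaving out replicate 2 at 20% protein and 20% fat gave 10. It was 55 without replicate 2 at 1% protein and 20% fat, and 45 without replicate 1 at 20% protein and 20% fat. Without replicate 2 at 20% protein and 60% fat it was 28. It was 26 to 29 without any one library at 2.5% or 5% protein, which are not in the contrast. Leaving out a library also changed the genes tested, from 16646 to between 16999 and 17036. With only the 8 libraries of the 2 protein levels it was 5, and in every one of these fits 0 fell. The share of all genes that rose moved with the count. It was 16.5% in the fit with 55, 6.79% with 45 and 4.02% to 7.04% in those with 26 to 29. In the fits with 8 to 13 it was 2.58% to 3.13%, and in the fit with 5 it was 2.18%.

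**Figure D2:**
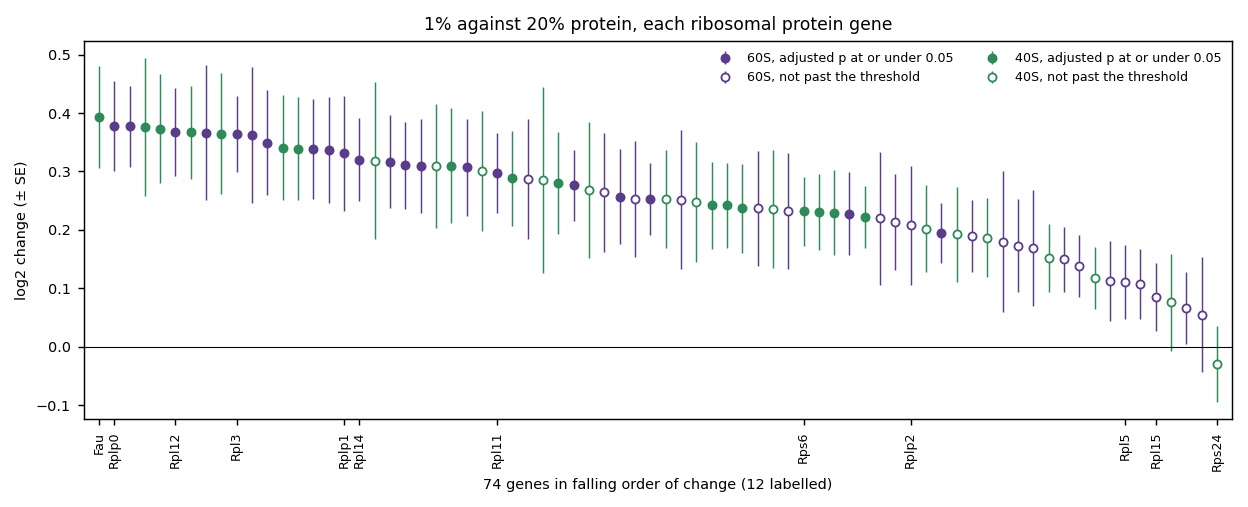
The log2 change of each of the 74 genes at 1% against 20% protein, in falling order, with its SE from the edgeR fit to 16 libraries. 12 genes are labelled, colour marks the subunit, and filled points have an adjusted p at or under 0.05; values run from 0.39 (Fau) to -0.03 (Rps24), and 38 points are filled.

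Genes that act at the ribosome's factor-binding and catalytic sites were among those that rose. Rplp0, the scaffold of the stalk, had 196 and 195 CPM with 60% fat and 182 and 147 CPM with 20% fat at 1% protein, against 135 and 146 CPM with 60% fat and 148 and 124 CPM with 20% fat at 20% protein. In 3 of the 4 libraries at 1% protein it was above all libraries at 20%, and replicate 2 of 20% fat fell within their range. Its log2 change was 0.38 ± 0.08 (SE; adjusted p = 0.00526, edgeR's quasi-likelihood test). Its acidic partner Rplp1 rose by 0.33 ± 0.10, and Rplp2, the other acidic partner, had 0.21 ± 0.10 (adjusted p = 0.0361 and 0.17, edgeR). Rpl12, which sits at the base of the stalk, rose by 0.37 ± 0.08 with no overlap between the groups.

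Rpl3, a core protein near the peptidyl transferase centre, had 250.1 and 244 CPM with 60% fat and 251 and 205 CPM with 20% fat at 1% protein, against 182 and 205 CPM with 60% fat and 185 and 167 CPM with 20% fat at 20% protein. All 4 libraries at 1% protein lay above all 4 at 20%, though the lowest of them, replicate 2 of 20% fat, exceeded the highest at 20% by a narrow margin. It rose 1.29-fold (log2 0.36 ± 0.07), with the smallest adjusted p of the 74 genes (0.00253, edgeR's quasi-likelihood test). Rpl10, which joins the large subunit late in its maturation and completes the catalytic centre, had 0.15 ± 0.06 and did not pass (adjusted p = 0.0791, edgeR). Rpl39, a short protein that lines the exit tunnel, rose by 0.37 ± 0.11.

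Small subunit genes gave changes of the same size. Fau, which encodes a 40S protein made as a fusion with a ubiquitin-like protein, had 152 and 141 CPM with 60% fat and 151 and 121 CPM with 20% fat at 1% protein, against 98.7 and 118 CPM with 60% fat and 121 and 92.8 CPM with 20% fat at 20% protein. The lowest library at 1% protein and the highest at 20% met at almost the same value without overlapping. Its log2 change, 0.39 ± 0.09, was the highest of the 74 (adjusted p = 0.00953, edgeR's quasi-likelihood test). Rps16, which contacts the tRNA, rose by 0.37 ± 0.08 without overlap, and Rps2 (0.38 ± 0.12), near the mRNA entry channel, Rps14 (0.37 ± 0.09), a protein of the platform, and Rpsa (0.36 ± 0.10), also known as a laminin receptor, rose with overlapping libraries.

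Rps6 is the ribosomal protein that S6 kinase phosphorylates downstream of mTORC1. It had 71.5 and 68.9 CPM with 60% fat and 66.5 and 61.0 CPM with 20% fat at 1% protein, against 56.5 and 60.3 CPM with 60% fat and 59.6 and 51.6 CPM with 20% fat at 20% protein. The groups did not overlap, and the transcript rose 1.17-fold (log2 0.23 ± 0.06, adjusted p = 0.0185, edgeR's quasi-likelihood test). Rpl11 and Rpl5 assemble with 5S rRNA and bind the p53 regulator Mdm2 when ribosome assembly fails. Rpl11 rose by 0.30 ± 0.07 and Rpl5 had 0.11 ± 0.06 (adjusted p = 0.011 and 0.244, edgeR). Rps27a, made as a fusion with ubiquitin, had 0.24 ± 0.10, Rps27 had 0.31 ± 0.11 and Rpl41, a very short basic protein, had 0.25 ± 0.12, and none of these passed. X-linked Rps4x rose by 0.23 ± 0.07, while Rpl22 (0.19 ± 0.06) and Rps3a1 (0.12 ± 0.05) did not pass.

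Among the genes at the other end were Rps24, Rpl23a, Rpl23, Rpl15, Rpl26, Rpl5 and Rpl31, with changes of at most 0.11 and none past the threshold. Rps24, whose human counterpart is mutated in some cases of Diamond-Blackfan anaemia, had 63.8 and 58.8 CPM with 60% fat and 60.3 and 69.0 CPM with 20% fat at 1% protein, against 67.4 and 68.1 CPM with 60% fat and 64.0 and 57.7 CPM with 20% fat at 20% protein. The groups overlapped throughout (log2 -0.03 ± 0.06, adjusted p = 0.783, edgeR's quasi-likelihood test). Rpl15, a core protein of the large subunit, averaged 51.7 ± 3.07 CPM at 1% protein and 48.8 ± 1.78 CPM at 20% protein (SD, n = 4 each; log2 0.08 ± 0.06, adjusted p = 0.332, edgeR). Its highest value at 1% protein, 56.2 CPM, came from replicate 2 of 20% fat, the library in which 58 of the 74 genes were lowest at that protein level.

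**Figure D3:**
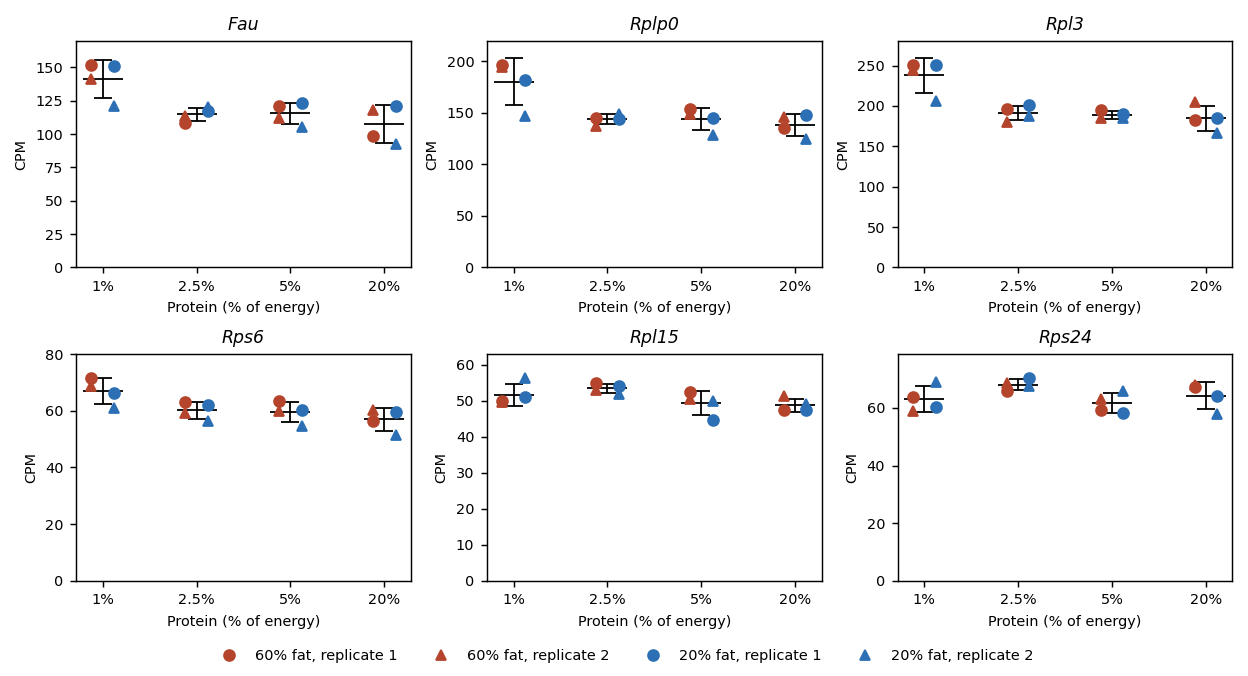
Levels (CPM) of Fau, Rplp0, Rpl3, Rps6, Rpl15 and Rps24 in every library by protein level (% of energy); points are libraries, coloured by fat level and shaped by replicate, and bars are the mean ± SD of 4. Fau, Rpl3 and Rps6 show no overlap between 1% and 20% protein, Rplp0 shows 1 library at 1% protein within the range at 20%, and Rpl15 and Rps24 overlap.

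The starts of these genes are shown because the 5′TOP tract is the feature that ties the family to mTORC1. RefSeq promoters (GRCm38.p6, 250 bases before to 50 after each annotated start) matched 54 of the 74 genes, 29 of which rose. Each line gives 10 bases before and 20 bases from the annotated start, 5′ to 3′, with the tract in capitals where the transcript starts with C and at least 4 more C or T bases.
Fau, chr19:6057937-6057966, plus strand: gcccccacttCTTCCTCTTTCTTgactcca
Rpl14, chr9:120571507-120571536, plus strand: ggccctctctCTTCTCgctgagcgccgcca
Rps6, chr4:86857348-86857377, minus strand: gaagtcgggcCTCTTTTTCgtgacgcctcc
Rps15a, chr7:118116128-118116157, minus strand: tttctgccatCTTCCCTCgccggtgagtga
Rpl15, chr14:18270967-18270996, minus strand: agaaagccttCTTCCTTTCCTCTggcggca
Rpl12, chr2:32961702-32961731, plus strand: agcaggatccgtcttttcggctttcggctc
Fau and Rpl15 have the longest tracts shown, 13 bases each, and had changes of 0.39 and 0.08. Rpl12 has no tract at its annotated start, though a short run of C and T bases begins just after it, and it rose by 0.37. Rpl14 (0.32), Rps6 (0.23) and Rps15a (0.22) rose as well. These lines are examples, and no link between tract and change can be read from them.

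A tract at the annotated start was found in 12 of the 54 genes (22.2%), against 3.01% of all 27025 genes with a RefSeq promoter. Those 27025 were not limited to genes counted or tested here, so expressed genes alone were not the comparison. A run of at least 8 C or T bases within 25 bases of the start was found in 28 of the 54 (51.9%), against 17.7%. Of other motifs, searched on both strands over the 300 bases, CCGGAAG (the ETS family core) was present in 42.6% of the ribosomal protein promoters and 9.93% of all, GGGCGG (Sp1) in 61.1% and 38.2%, CCATNTT (YY1) in 31.5% and 18.2%, and TATAAA in 11.1% and 15.7%. Matches of different motifs can share bases, and CCGGAAG read on the other strand holds a run of C and T bases; such overlaps were not counted. Genes with and without the tract at the annotated start gave similar shares: 7 of the 12 genes with it rose (median 0.27), and 22 of the 42 without it (median 0.25). Genes counted as without it may still begin with a tract, since it was scored only at the annotated start. This split therefore cannot separate 5′TOP mRNAs from others. For CCGGAAG, 11 of the 23 genes with it rose (median 0.24), and 18 of the 31 without it (median 0.27).

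Across the 16 libraries the genes varied together. The median Pearson correlation between pairs was 0.75, and 0.65 over the 12 libraries without 1% protein; as libraries share their depth scaling, these are descriptions with no test. A first principal component held 76.3% of the variance. Of the 74 genes, 59 had a correlation over 0.75 with the mean of the others, led by Rplp1 (0.98), Rps3 (0.97) and Rpl13a (0.97). The exceptions under 0.5 were 5 genes, all of which failed to pass at 1% against 20% protein: Rps24 (-0.09), Rpl15 (0.10), Rpl23 (0.25), Rpl7 (0.49) and Rpl5 (0.49). Their annotated exon lengths, 6256, 2473, 1770, 2687 and 3920 bases, compare with a median of 1776 bases over the family.

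The shared pattern followed libraries as much as diets. At 1% protein, 70 and 60 of the 74 genes were above their own mean of all libraries in the libraries of 60% fat, and 72 and 29 in those of 20% fat. At 20% protein the counts were 3 and 40 with 60% fat and 51 and 0 with 20% fat. Replicate 1 of 60% fat with 1% protein held the highest value of 39 genes and replicate 1 at 1% protein and 20% fat that of 28. Replicate 2 of 20% fat with 20% protein held the lowest value of 56. Within diets the SD between libraries had a median of log2 0.14, from 0.06 for Rpl7 to 0.27 for Rps29, so that the typical change at 1% protein was less than 2 such SDs.

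**Figure D4:**
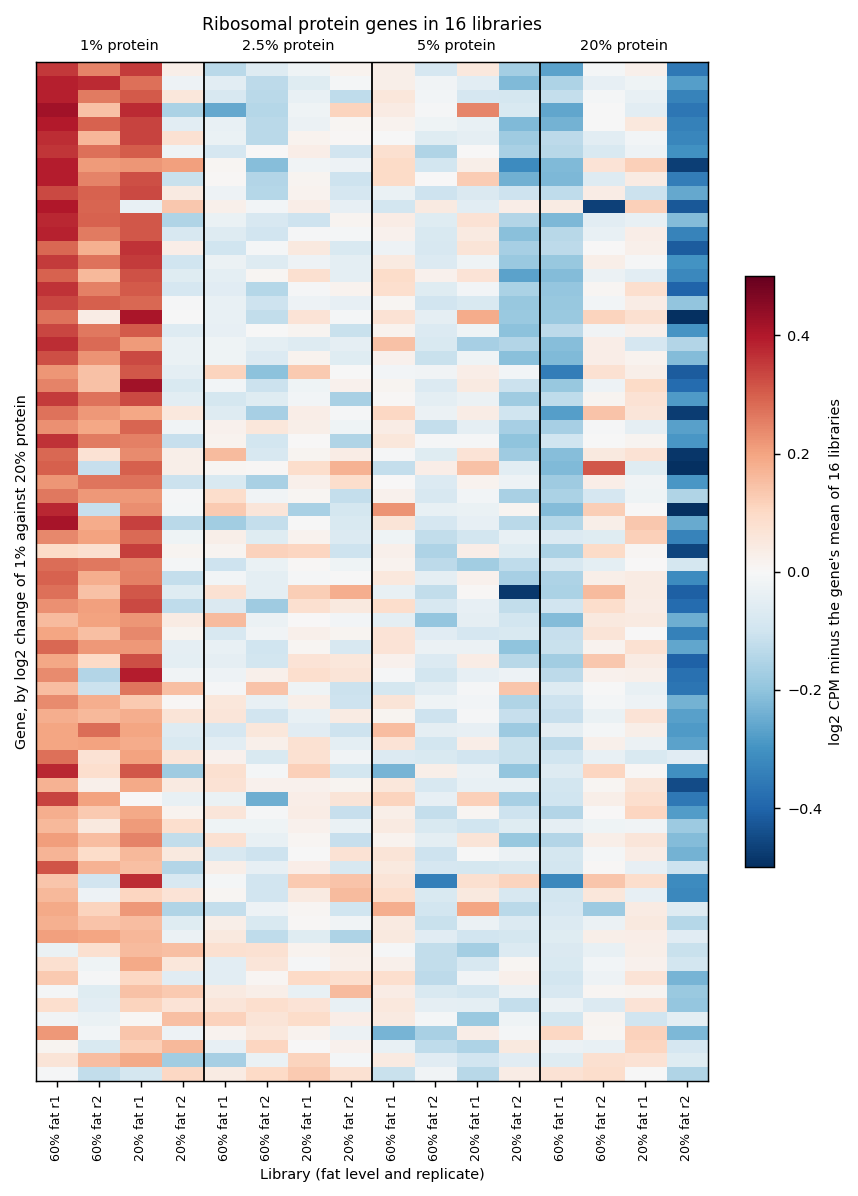
Each gene's log2 CPM minus its mean over 16 libraries (colour), with libraries grouped by protein level and genes in falling order of the log2 change at 1% against 20% protein. Most genes are high in 3 of the 4 libraries at 1% protein and low in replicate 2 at 20% protein and 20% fat, where 56 genes have their lowest value.

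Against the middle protein levels the same direction was seen with fewer genes past the threshold. These comparisons share the libraries at 1% protein with the one above. At 1% against 5% protein, 13 rose and 0 fell (2.46% of all genes rose and 2.41% fell), all 74 lay above 0 and the median was 0.19. By subunit the median was 0.21 for the 42 genes of 60S and 0.18 for the 32 genes of 40S. Of the 13, 11 encode 60S proteins, led by Rpl3 (0.33) and Rplp0 (0.32), and 2 encode 40S proteins, Rps16 and Rps15a. Without replicate 2 at 1% protein and 20% fat the count was 44, while 10.8% of all genes rose. It lay between 1 and 8 without any other single library except replicate 1 at 20% protein and 60% fat (9) and replicates 1 and 2 of 20% fat with 20% protein (11 and 9).

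At 1% against 2.5% protein, 4 genes rose and 0 fell (1.39% of all genes rose and 0.931% fell), among them Rplp0 (0.32), Rpl3 (0.31) and Rpl14 (0.28). The median was 0.17, and 72 of 74 lay above 0. Rps24 (-0.11) and Rpl15 (-0.05) were below it and did not pass. Groups did not overlap for 8 of 74 genes against 5% protein (4.9% of all genes) and for 9 against 2.5% protein (4.13% of all genes). Without replicate 2 at 1% protein and 20% fat 39 rose and 1 fell, while 12.3% of all genes rose and 12.7% fell. The count was 3 or 4 without any one library of 20% fat with 5% or 20% protein, and 0 to 2 without any other.

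Between the higher protein levels no gene of the family passed. At 2.5% against 20% protein the median was 0.08, 70 genes lay above 0, and 0 passed edgeR's quasi-likelihood test or DESeq2, with 1 gene at an unadjusted p under 0.05 (0.00601% of all genes passed). At 5% against 20% protein the median was 0.05, 62 lay above 0 and 0 passed either test, with 0 at an unadjusted p under 0.05 (0.03% of all genes passed). All 4 libraries at 2.5% protein lay above all 4 at 20% for 1 of the 74 genes (1.6% of all genes), and all 4 at 5% for 0 (1.59% of all genes). Leaving out single libraries, the median at 2.5% against 20% protein lay between 0.02, without replicate 2 at 20% protein and 20% fat, and 0.13, without replicate 1 of that diet. At 5% against 20% protein the same omissions gave -0.01 and 0.10, so that its sign rested on 1 library. Rplp0, as an example, averaged 180 ± 22.7, 144 ± 4.96, 144 ± 10.6 and 138 ± 10.9 CPM at 1%, 2.5%, 5% and 20% protein (SD, n = 4 each). Fau averaged 141 ± 14.3, 115 ± 5.11, 116 ± 8.09 and 108 ± 14.0 CPM in the same order. For both genes the widest gap between neighbouring means was that between 1% and 2.5% protein. Diet codes in the labels split 1% and 2.5% from 5% and 20% protein, so comparisons across that split cannot be told apart from the diet series, whereas 1% against 2.5% lies within it.

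A straight line through the protein levels, the form of model stated for the study, called none of the 74 genes. The fitted slope from 20% to 1% protein had a median of log2 0.17 and was above 0 in all 74, but 0 passed edgeR's quasi-likelihood test or DESeq2 (0.018% of all genes passed), with 35 at an unadjusted p under 0.05 and a smallest adjusted p of 0.246. The median was 0.11 without replicate 2 at 20% protein and 20% fat and 0.09 with a term for the diet code. With protein entered on a log2 scale, 22 rose toward 1% protein, while 4.26% of all genes rose and 3.62% fell.

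Fat content gave little difference. At 60% against 20% fat the median was 0.04, and genes ran from -0.13 (Rpl30) to 0.14 (Rps12). None passed edgeR's quasi-likelihood test or DESeq2, and 3 had an unadjusted p under 0.05 (0.00601% of all genes passed).

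The change at 1% against 20% protein was also read within each fat level. With 60% fat the median was 0.27 over the 74 genes, and similar between the subunits (0.28 for 60S and 0.27 for 40S). Of the 74 genes 6 rose and 0 fell (1.96% of all genes rose and 2.25% fell), among them Rplp0 (0.48), Rpl14 (0.42), Rpl19 (0.41), Rpl6 (0.36) and Rpl10a (0.34). The smallest adjusted p of a 40S gene was 0.0528 (edgeR's quasi-likelihood test), and all 6 genes that rose are of the 60S subunit. That count was 0 or 1 without any one library of 60% fat, of 20% fat with 2.5% protein or of 20% fat with 20% protein, and 26 without either library at 1% protein and 20% fat, where 6.73% and 6.79% of all genes rose. With 20% fat the median was 0.24 and all 74 lay above 0, but 0 passed edgeR's quasi-likelihood test and 1 passed DESeq2, with 28 at an unadjusted p under 0.05 (0.601% of all genes rose and 1.18% fell). The median there was 0.38 without replicate 2 at 1% protein and 20% fat. It was 0.40 without replicate 1 at 20% protein and 20% fat. Without replicate 1 at 1% protein and 20% fat, or replicate 2 at 20% protein and 20% fat, it was 0.09. The difference between the fat levels, tested in itself, had a median of 0.03, with 42 genes above 0 and 32 below, and the median lay between -0.13 and 0.18 leaving out single libraries. It passed for 0 of the 74 genes in edgeR's quasi-likelihood test and DESeq2, with 0 at an unadjusted p under 0.05 (0.0% of all genes passed). Rps29 had the lowest difference (-0.52) and Rpl36 the highest (0.36), with adjusted p of 0.641 and 0.671 (edgeR).

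Gene length moved with the result. Ribosomal protein genes are short, with a median counted length of 3201 bases (849 to 25164), against 22590 bases over all genes tested. Across all 16646 genes the log2 change at 1% against 20% protein had a Spearman correlation of -0.23 with length, and each library's own deviation with length was -0.261 and -0.169 with 60% fat and -0.258 and 0.166 with 20% fat at 1% protein, against 0.233 and -0.049 with 60% fat and -0.095 and 0.315 with 20% fat at 20% protein. Other genes of up to 3000 bases had a median change of 0.12, with 8.45% that rose and 1.85% that fell, and those above 100000 bases a median of -0.07, with 4.88% that rose and 8.75% that fell. With the trend on length removed from each library, 25 of the 74 genes rose, all among the 38, while 8.24% of all genes rose. The median of the 74 was then 0.17. Within the family the correlation of the change with length was -0.21 over 74 genes.

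Genes with and without overlapping annotation gave similar counts. The deposited length equalled the gene's full genomic span, introns included, for 49 of the 74 genes, so reads from introns may be part of their counts. In GENCODE M21, 42 of the 74 overlap another gene, 16 of them a coding gene, and 29 hold a small nucleolar RNA gene in their span. With an overlapping gene 23 of 42 rose (median 0.25), and without one 15 of 32 (median 0.25). With a small nucleolar RNA inside 15 of 29 rose (median 0.25), and without one 23 of 45 (median 0.25). For the 4 rows at 0 counts other annotated genes cover 93.4% (Rpl24) or all of the exon bases (Rpl13, Rpl35 and Rpl35a). Over Rpl35, Arpc5l averaged 1443 counts and Wdr38 6.5. Over Rpl13, Gm20388 averaged 3335 counts on a counted length of 4.43e+06 bases. Gm28037, over Rpl24, averaged 14.5 counts, and Gm17106, over Rpl35a, 2.88. Where reads of these 4 genes were counted, if anywhere, was not tested. Rps10, at 94.8% covered, still averaged 1445 counts. In GRCm38, Rplp0 (ENSMUSG00000067274, chromosome 5, 115559467 to 115563727), Rps6 (ENSMUSG00000028495, chromosome 4, 86854660 to 86857412), Fau (ENSMUSG00000038274, chromosome 19, 6057844 to 6059524) and Rps24 (ENSMUSG00000025290, chromosome 14, 24487125 to 24496959) overlap no other annotated gene.

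Markers of other cells also differed between the protein levels. All 4 endothelial markers fell at 1% against 20% protein (median log2 -0.41), with summed levels of 116 to 125 CPM at 1% protein, against 143 to 167 CPM at 20%. In bulk tissue fewer cells of a type and less RNA per cell cannot be told apart. Of 5 choroid plexus markers tested 1 rose, Ttr (3.26), with summed levels of 45.4 to 250.4 CPM, against 42.4 to 53.1 CPM, and a further marker, Kcnj13, at 0 counts. Of 6 thalamic markers 2 rose, Prkcd (1.06) and Tcf7l2 (0.62), with summed levels of 623 to 825 CPM, against 464 to 616 CPM. Of 10 hypothalamic markers 1 rose, Agrp (0.59), and 3 fell, Pomc (-1.91), Sim1 (-0.67) and Avp (-0.58), with summed levels of 650 to 1048 CPM, against 877 to 1024 CPM. Of 8 cortical and hippocampal markers 0 passed edgeR's quasi-likelihood test or DESeq2 and 0 had an unadjusted p under 0.05, with summed levels of 363 to 714 CPM, against 297 to 410 CPM. Of 5 oligodendrocyte markers 1 fell, with summed levels of 7292 to 9469 CPM, against 8249 to 9972 CPM, and in astrocytes 2 of 4 rose and 1 fell, with Gfap at 0 counts. Without the 2 libraries with cortex markers 56 of the 74 ribosomal protein genes rose, and so did 17.5% of all genes. The part of these markers, of the mitochondrial share and of gene length in the ribosomal protein change was not tested beyond those fits.

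Other genes of the translation machinery were read from lists, again at 1% against 20% protein and with edgeR's quasi-likelihood test. In the order below, 29.4%, 31.4%, 43.5% and 13.9% of the genes of a list rose, against 8.26% of all genes. Of 17 other TOP mRNAs and elongation factors 5 rose and 0 fell (median 0.16): Btf3 (0.28), Eef1d (0.26), Gnb2l1 (0.25), which encodes the 40S-bound scaffold Rack1, Pabpc1 (0.17), the poly(A)-binding protein, and Eef1a1 (0.18), which delivers aminoacyl-tRNA. Of 35 initiation factors 11 rose and 0 fell (median 0.16), among them Eif3f (0.40), Eif6 (0.39), which keeps the subunits apart, Eif4b (0.32), a partner of the mRNA helicase, and Eif3l (0.31). Of 23 cytosolic tRNA synthetases 10 rose and 0 fell (median 0.13), with Kars (0.33), Aars (0.28), Yars (0.25) and Gars (0.23) at the smallest adjusted p. Mitochondrial ribosomal proteins, encoded in the nucleus, had 10 of 72 that rose and 0 that fell (median 0.14), such as Mrpl41 (0.59), Mrps18b (0.32), Mrps26 (0.29) and Mrpl11 (0.28).

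Genes that make ribosomes, as opposed to forming part of them, were read in the same way. Of 49 ribosome biogenesis genes 4 rose (8.16%, near the 8.26% of all genes, and so no result about the list), Nhp2 (0.50), Eif6, Nop14 (0.27) and Lsg1 (0.23), and 2 fell, Rbm28 (-0.41) and Ltv1 (median 0.06). Of 30 genes of RNA polymerases I and III 5 rose (16.7%, against 8.26% of all genes) and 0 fell (median 0.09): Brf2 (0.29), Maf1 (0.26), a repressor of polymerase III, Brf1 (0.22), Rrn3 (0.16) and Polr1a (0.15). Host genes of small nucleolar RNAs had 2 of 11 that rose (18.2%, against 8.26% of all genes), Epb41l4aos (0.46) and Snhg12 (0.33), with a median of 0.14. Of 26 regulators of TOP mRNAs and S6, 0 rose and 1 fell (median 0.03), while 8.26% of all genes rose and 6.01% fell. The gene that fell was Rps6ka6 (by 0.51), which encodes a ribosomal S6 kinase of the RSK family. A single fall is no result about the list. With DESeq2 1 of the list rose and 3 fell, while 5.71% of all genes rose and 4.26% fell. Of 6 paralogs of ribosomal protein genes 0 passed edgeR's quasi-likelihood test or DESeq2, with 0 at an unadjusted p under 0.05 (median 0.10). Of 19 tested pseudogene rows 0 passed either test, with 4 at an unadjusted p under 0.05 (median 0.33).

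**Figure D5:**
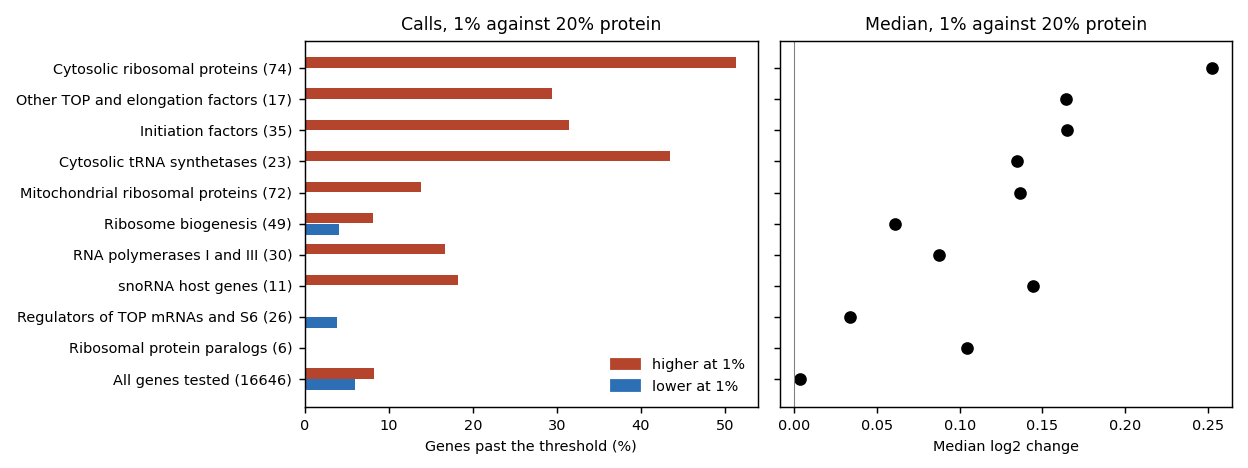
Percentage of genes past the threshold, higher or lower at 1% against 20% protein (left), and median log2 change (right), for the 74 ribosomal protein genes, other lists of the translation machinery and all genes tested, with the number tested in brackets. The ribosomal protein genes have 51.4% higher and a median of 0.25, against 8.26% and 0.00 over all genes.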

How the data were processed

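Gene counts from RNA sequencing of the hypothalamus were analysed as the authors deposited them, as raw counts with a length per gene. The submitters' processing notes name the build GRCm38 and, with no roles, HISAT2 2.1.0, Subread 5.0, featureCounts, SAMtools 1.2, FastQC and edgeR. Library type, strand setting and the handling of multiply mapped reads are not stated in the sources used here, and reads of antisense or overlapping genes cannot be told apart.

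Counts were filtered with edgeR's filterByExpr (minimum count 10, 16646 genes), scaled with TMM factors and tested with the quasi-likelihood F test of edgeR 4.0.16 under R 4.3.3, fitted to all 16 libraries, with Benjamini-Hochberg adjustment over all genes tested at 0.05. Models held protein as 4 levels with fat, the 8 diets as groups, or, following the series' design text, protein as a line with fat and an interaction kept where its p was at most 0.05. SEs were derived from the fold change and F statistic. CPM are TMM-scaled, with a prior count of 2 on the log2 scale. Depth was close to equal between libraries, so counting error differs little between them. Exon lengths and overlaps come from GENCODE M21. Steps were tested on simulated counts.

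The rule for named genes took the 8 highest and 8 lowest changes at 1% against 20% protein, the 3 highest and lowest elsewhere, and 16 genes of known roles; from other lists, up to 4 past the threshold with the smallest adjusted p, with further names where a count was 5 or fewer. Some genes under this rule are not reported here. Members and lists were chosen with earlier results of these data known, so no count over them is independent support. Alternatives were median-ratio scaling, DESeq2 1.42.0, other filters, a replicate block, a length offset, scaling without mitochondrial genes, fewer libraries, protein on a log2 scale and a term for the diet code. The fit without 2 libraries together was chosen after seeing the data.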

Additional observations from a re-analysis of the deposited data

Results flagged for a closer look

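In 8 of 164 sets of 4 libraries of a protein level, 1 library lay far from the other 3 (gap over range above 0.829, Dixon's 95% limit); chance gives about 1 in 20. Values are log2 CPM. Replicate 2 of 20% fat with 1% protein was lowest at that protein level for Rpl3 (7.68, against 7.93 to 7.97 in the others), Rpl10 (6.95, against 7.14 to 7.18), Rpl28 (5.87, against 6.31 to 6.39) and Rps4x (6.59, against 6.69 to 6.71). That is the library with the highest mitochondrial share, 3.20%, and raised cortex markers; their part in these values was not tested. Replicate 1 of 60% fat with 1% protein was highest for Rpl39 (4.54, against 4.35 to 4.37), and replicate 2 at 2.5% protein and 60% fat lowest for the same gene (3.94, against 4.12 to 4.16). At 5% protein, replicate 2 of 60% fat was lowest for Rpl30 (5.38, against 5.79 to 5.83) and replicate 1 of 20% fat highest for Rps27 (5.98, against 5.93 to 5.94).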

How the results depend on the processing

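The genes that rose at 1% against 20% protein numbered 29 to 43 of 74 with median-ratio scaling (36), no count filter (39), a mean count of at least 100 (29), scaling without mitochondrial genes (33), the replicate block (43) and DESeq2 (42), 25 with the length trend removed, 5 with the 8 libraries of those protein levels, and 8 to 55 leaving out each library. Rpl12, Rplp0 and Rps16 passed in all 26 alternatives, Fau in 25, Rpl11 in 23, Rps6 and Rps14 in 20, Rpsa and Rps4x in 19, Rplp1 in 16, Rps2 and Rpl39 in 11. Of all genes, 4.24% to 9.65% rose with the other scalings and filters, the block and DESeq2, and 8.24% with the length trend removed. The share was 2.18% with the 8 libraries and 2.58% to 16.5% leaving out each library. The median of the 74 genes stayed between 0.17 and 0.31.

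At 1% against 5% protein the 13 became 24 with the replicate block, 46 without the cortex-marker libraries, 52 without replicate 2 of 20% fat with 1% and with 20% protein together, 1 with 8 libraries, 21 with DESeq2 and 1 to 44 leaving out each library. Of all genes, 3.35%, 11.5%, 11.6%, 0.533% and 2.36% rose in those fits, and 0.628% to 10.8% leaving out each library. At 1% against 2.5% the 4 became 10, 36, 47, 0, 11 and 0 to 39 in the same order, with 1 that fell without that pair of libraries and 0 to 1 leaving out each. Of all genes, 2.16%, 11.7%, 13.2%, 0.227% and 1.81% rose in those fits, and 0.329% to 12.3% leaving out each library. Without the pair 13.2% of all genes also fell. With 60% fat the 6 became 22 with no filter, 22 with the block and 18 with DESeq2, while 2.93%, 4.60% and 2.35% of all genes rose. The median with 60% fat lay between 0.20 and 0.34 leaving out each library. With 20% fat the 0 became 3 with no filter, 2 with the block, 1 with the length trend removed, 15 without the cortex-marker libraries, 1 with DESeq2 and 0 to 14 leaving out each library; the median there was 0.38 without the cortex-marker libraries and 0.0904 to 0.395 leaving out each. The median difference between fat levels was -0.0917 without the cortex-marker libraries and -0.13 to 0.18 leaving out each. Along the slope 22 rose toward 1% protein when protein was entered on a log2 scale, as did 4.26% of all genes. Genes that changed sign without passing included Rpl23 (-0.0015 with the length trend removed, -0.0018 without the pair) and Rpl23a (-0.0404 with the length trend removed, and -0.0055 without replicate 1 at 1% protein and 20% fat in a range of -0.0055 to 0.125 leaving out each library). Except where fewer libraries entered a fit, the cause was not tested.

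Deviations of same-numbered libraries had correlations of -0.17 to 0.34 over 28 pairs of diets, 7 over 0.1. Yet the summed share of the ribosomal protein genes was higher in replicate 1 than in replicate 2 of most diets. The exception was 20% protein with 60% fat (0.706% and 0.772%). The correlation of a library's deviation with gene length was lower in replicate 1, with the same exception. With the replicate block 43 of these genes rose at 1% against 20% protein, against 38 in the main fit. Whether replicate numbers mark a shared effect was not tested beyond fits with that block. A diet has 2 libraries, which limits the precision of every change, and fits that leave out 1 assume that the other varies like the rest.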
